A study of Mus musculus with 12 samples.

Results

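The small heat shock proteins of heart muscle and their co-chaperone were followed in mouse left ventricle with and without *Rpl3l*. The 8 genes were *Hspb1*, *Hspb2*, *Hspb3*, *Hspb6*, *Hspb7*, *Hspb8*, *Cryab* and *Bag3*, chosen by name, and each had 1 transcript among the 21669 listed. They were grouped with the footprint values in view, since *Hspb7* footprints had looked lower in the knockout. The footprint contrast between genotypes and the ratio built on it are therefore given as descriptions: counts of calls stand beside those of all genes with nothing read from them, and a test is read for RNA alone. Lysates of adult ventricle, wild-type (WT) or Rpl3l-/- (KO), gave RNase I footprint libraries (RPF, ribosome-protected fragments) and polyadenylated RNA libraries, with 3 biological replicates of each genotype in each assay and 12 libraries in all. Cycloheximide, which halts elongating ribosomes, was in every lysate. Rpl3l is the muscle form of ribosomal protein L3, found in ribosomes of heart and skeletal muscle. The labels give the genotype, and no exact age, sex, strain or allele. The tissue was bulk ventricle, so fewer cells of a type and less RNA per cell cannot be told apart.

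Small heat shock proteins are ATP-independent chaperones built around an alpha-crystallin domain. They hold unfolding proteins in a refoldable state, and in heart muscle many of their clients lie at the Z-disc and along desmin, titin and filamin C. Bag3 binds small heat shock proteins, Hspb8 in particular, and links them to Hsp70 for refolding or for chaperone-assisted selective autophagy, the route by which damaged filamin is removed. Several of the genes are targets of heat shock factor, which binds inverted repeats of nGAAn.

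Their promoters and coding starts are shown first because they are what the genes share and where they differ by sequence. In RefSeq promoters (GRCm38.p6, 250 bases before to 50 after the annotated start), 7 windows matched 6 of the genes: *Hspb1*, *Hspb3*, *Hspb6* with 2 starts, *Hspb7*, *Hspb8* and *Bag3*. The inverted repeat GAANNTTC, which reads the same on both strands, lay in 5 of the 7 windows and in 7.86% of all 32851 promoter windows. The exact form GAAGTTTC, noticed after the windows were seen and searched on both strands and a subset of the former, lay in 4 of the 7 and in 1.212% of all. The outward repeat TTCNNGAA lay in 0 of the 7 and in 8.52% of all. The 4 genes with GAAGTTTC were *Hspb1*, *Hspb6*, *Hspb8* and *Bag3*, and the *Hspb3* window held another form of the inverted repeat. Counted from the annotated start, the repeat began at -117 in *Hspb1*, -120 in *Hspb6*, -224 in *Hspb3*, 2 in *Hspb8* and 42 in *Bag3*. The *Hspb8* and *Bag3* matches thus lay after the start. The *Hspb1* window also held GAACCTTC at -97, which is not printed below. The stretches follow, 5′ to 3′ on the strand of the gene, with the repeat in capitals.
Hspb1, chr5:135887791-135887820, plus strand: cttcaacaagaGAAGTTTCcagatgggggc
Hspb6, chr7:30553170-30553199, plus strand: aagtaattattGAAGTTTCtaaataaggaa
Hspb8, chr5:116422844-116422873, minus strand: agaagccaggaGAAGTTTCtaggctcgcga
Bag3, chr7:128523614-128523632, plus strand: ggatgggaccaGAAGTTTC
Hspb3, chr13:113663882-113663911, minus strand: ctccccgaatgGAATTTTCaggcagaggga
These are letter matches and were not tested as binding sites.

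All 8 coding sequences were richer in G and C than the median of the annotated coding sequences (51.8%), and they ranged from 53.3% in *Hspb3* to 64.6% in *Hspb1*. The 60 coding bases from the start codon (in capitals) of these extremes and of *Hspb7* are given because footprint libraries differed in the level of GC-rich genes, as described below.
Hspb1: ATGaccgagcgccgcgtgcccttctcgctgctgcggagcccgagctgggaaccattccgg
Hspb7: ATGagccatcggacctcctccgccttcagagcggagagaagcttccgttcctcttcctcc
Hspb3: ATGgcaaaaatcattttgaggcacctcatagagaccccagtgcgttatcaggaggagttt
The transcripts counted also differed in their 3′ UTRs (GENCODE M21, GRCm38). *Hspb1*, *Hspb2*, *Hspb3* and *Cryab* had 3′ UTRs of 133, 201, 132 and 141 bases, while *Hspb6*, *Hspb7*, *Hspb8* and *Bag3* had 807, 1253, 840 and 585 bases. *Hspb7* has 3 exons and 510 coding bases at chr4:141420779-141425311, plus strand. *Hspb1* lies at chr5:135887919-135889563, *Hspb6* at chr7:30553268-30555443 and *Bag3* at chr7:128523616-128546981, all on the plus strand. *Hspb8* lies at chr5:116408491-116422864 and *Hspb3* at chr13:113662896-113663676, both on the minus strand. *Cryab* (chr9:50751325-50756636, plus strand) and *Hspb2* (chr9:50751078-50752293, minus strand) overlap in exons over 252 bases (chr9:50751325-50751576), which are coding in *Hspb2*. The RNA kit keeps strand, per the labels, but whether the counting used it is not given in the sources used here, so reads from these 252 bases may have been counted for either gene.

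Library totals ranged from 3827862 to 7474602 counts in RPF and from 6635242 to 8459004 in RNA. Raw counts of the targeted gene *Rpl3l* ranged from 2726 to 3329 in RNA WT and 276 to 442 in RNA KO, and from 937 to 1108 in RPF WT and 30 to 65 in RPF KO, in accord with the labels. As a GC measure, the median deviation of 809 other genes with a coding GC content of at least 60% from their own means was taken in each footprint library (log2 CPM, where CPM is the count scaled to a common library size). It was 0.045, 0.21 and 0.038 in WT 1 to 3 and -0.0005, -0.23 and 0.011 in KO 1 to 3. Every WT library thus lay above every KO library, so a fit with this measure cannot fully tell it from genotype. Whether this reflects library preparation or expression was not tested. In RNA, the 802 other genes with the highest footprints per RNA (the top 10%) stood at medians of 0.16, 0.21 and 0.20 in WT 3, KO 1 and KO 3, and at -0.25, -0.13 and -0.13 in WT 1, WT 2 and KO 2. Both differences between libraries bear on the 8 genes and are given again beside their results.

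Footprints showed a wide order of levels in WT. Counted per kb of coding sequence, *Cryab*, alpha B-crystallin, stood at 12416 ± 1827 CPM per kb (SD, n = 3), which put it 8th among 11064 genes. *Hspb7*, the cardiovascular small heat shock protein, followed at 3940 ± 50.4 (SD, n = 3) and ranked 33rd. *Hspb6*, also known as Hsp20 and a substrate of protein kinase A, stood at 2830 ± 493 (SD, n = 3) and ranked 51st. *Hspb1* (Hsp27), at 851 ± 89.5, and *Hspb8* (Hsp22), the partner of Bag3, at 767 ± 60.7, had overlapping ranges. *Bag3* stood at 326 ± 60.1 and *Hspb2*, a binding protein of the myotonic dystrophy kinase, at 197 ± 35.0. *Hspb3*, which forms complexes with Hspb2, was by far the lowest at 26.7 ± 6.47 CPM per kb. Every other neighbouring pair in this order had ranges that did not overlap. If footprints are divided by transcript length, *Hspb6* (1015 CPM per kb) passes *Hspb7* (726), whose counted transcript is long. Together the 8 genes took 1.16% ± 0.119 of all footprint counts in WT, against 0.887% ± 0.217 in KO (SD, n = 3), of which *Cryab* alone was 56.3% in WT and 54.0% in KO.

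The RNA order was different. *Cryab* again led with 1705 ± 131 CPM per kb of transcript in WT (SD, n = 3), followed by *Hspb1* at 177 ± 14.4, *Hspb2* at 48.3 ± 3.51 and *Hspb8* at 25.4 ± 6.74, and these neighbours did not overlap. *Hspb3* stood at 16.0 ± 3.89, *Bag3* at 10.9 ± 2.73, *Hspb6* at 7.64 ± 3.58 and *Hspb7* at 7.39 ± 3.03, and each of these overlapped its neighbour. *Hspb7*, 33rd by footprints, was thus 2300th of 8321 genes by RNA, and *Hspb6* was 2255th. The order below *Hspb1* depended on the length used. Per kb of coding sequence the RNA of *Hspb8* (78.1 ± 20.7) lay above that of *Hspb2* (68.0 ± 4.95; SD, n = 3). *Hspb7* (40.1) then lay above *Hspb3* (26.9), and *Hspb6* (21.3) above *Bag3* (16.1).

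**Figure D1:**
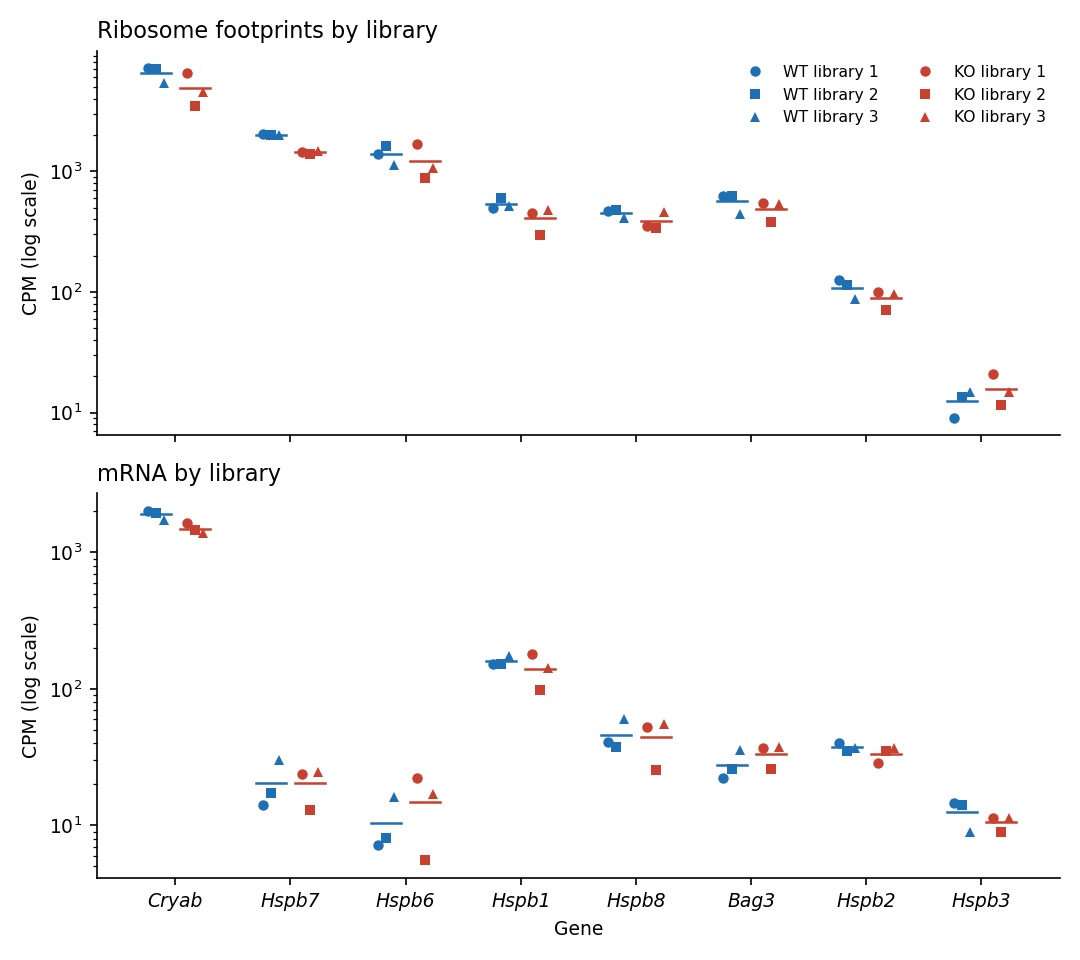
Scaled counts (CPM, logarithmic axes) of the 8 genes in each library, footprints above and RNA below. Points are libraries 1 to 3 of WT (blue) and KO (red), and bars are group means. *Hspb7* footprints lie between 1985 and 2036 in WT and between 1384 and 1476 in KO, while its RNA ranges overlap.

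*Hspb7* footprints stood apart between the genotypes. They were 2036, 2007 and 1985 CPM in WT libraries 1 to 3 and 1451, 1384 and 1476 CPM in KO libraries 1 to 3, from raw counts of at least 7044 in each. Every KO library lay below every WT library, and the spread within each genotype was small beside the gap (2010 ± 25.7 against 1437 ± 47.5, SD, n = 3 each). KO kept 71.5% of the WT mean, a log2 fold change of -0.48 (SE 0.10). The value ranged from -0.50 to -0.46 when any library was left out. It was -0.45 (SE 0.13) with the GC measure of each library as a covariate, a fit added after the data were seen. That measure was itself higher in every WT than in every KO library. In 5.77% of all genes KO footprints lay below WT without overlap. These footprints are what singled out *Hspb7*, so its separation and steadiness are descriptions and nothing is read from them.

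The other 7 genes were less sharply separated in footprints. *Hspb1* was 494, 600 and 514 CPM in WT and 448, 297 and 477 CPM in KO, so its groups did not overlap either (log2 fold change -0.40, SE 0.16). *Cryab* was 7149, 7076 and 5443 CPM in WT and 6564, 3480 and 4524 CPM in KO (-0.43, SE 0.18). The KO 1 library of *Cryab* lay above the WT 3 library, so its groups overlapped. *Hspb8* was 470, 478 and 412 CPM in WT and 354, 339 and 457 CPM in KO, and overlapped through KO 3 (-0.24, SE 0.14). *Bag3* was 628, 621 and 444 CPM in WT and 547, 378 and 533 CPM in KO (-0.22, SE 0.16). Its lowest library was KO 2 and its next lowest WT 3. *Hspb6* was 1395, 1619 and 1138 CPM in WT and 1678, 881 and 1067 CPM in KO, with its highest and its lowest value both in KO (-0.20, SE 0.19). *Hspb2* was 125, 113 and 87.1 CPM in WT and 99.0, 70.8 and 96.2 CPM in KO (-0.29, SE 0.18). *Hspb3* alone had a higher KO mean, at 9.05, 13.4 and 14.8 CPM in WT and 21.02, 11.6 and 14.7 CPM in KO (0.35, SE 0.31), from as few as 44 raw counts.

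Thus 7 of the 8 genes had a lower footprint mean in KO, with a median log2 fold change of -0.27, against 0.0014 over all 11153 genes, of which 49.8% were lower. The groups did not overlap in 2 of the 8, *Hspb7* and *Hspb1*, and in 5.77% of all genes KO lay below WT without overlap. In 0 of the 8 did KO lie wholly above WT, as it did in 6.27% of all genes. In edgeR's quasi-likelihood test, adjusted over all genes, 0 of the 8 and 0.00897% of all genes were called. At an unadjusted p below 0.05 it was 3 of the 8 and 5.96% of all, and DESeq2 called 1 of the 8, *Hspb7*, and 5 of all 11153 genes. Since these values helped choose the genes, nothing is read from the counts.

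The KO 2 library was the lowest for 7 of these genes, all but *Hspb3*. In it all 8 lay below their own mean over the 6 footprint libraries, by 0.23 to 0.67 on the log2 scale, and KO 2 was also the library in which GC-rich genes were lowest. With the GC measure as a covariate the footprint log2 fold change was -0.09 (SE 0.19) for *Cryab*, -0.03 (SE 0.15) for *Hspb1*, -0.04 (SE 0.21) for *Hspb2*, -0.08 (SE 0.17) for *Hspb8*, 0.09 (SE 0.18) for *Bag3* and 0.21 (SE 0.21) for *Hspb6*. *Hspb3* moved to 0.67 (SE 0.40). The *Hspb7* value in that fit was -0.45 (SE 0.13), but these footprints are what singled out *Hspb7*. The GC measure was also higher in every WT than in every KO library. Nothing is therefore read from this fit about which genes differ between genotypes. Without KO 2, the value was -0.24 for *Cryab*, -0.21 for *Hspb1*, -0.15 for *Hspb2*, -0.16 for *Hspb8*, -0.06 for *Bag3*, -0.01 for *Hspb6* and 0.53 for *Hspb3*. Without KO 1, in contrast, it was -0.71 (SE 0.15) for *Cryab*, -0.50 (SE 0.16) for *Hspb6*, -0.47 (SE 0.19) for *Hspb1* and 0.08 (SE 0.34) for *Hspb3*. *Bag3* reached -0.36 without WT 3 and *Hspb8* -0.38 without KO 3. The sizes for these 7 genes thus depended on single libraries.

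**Figure D2:**
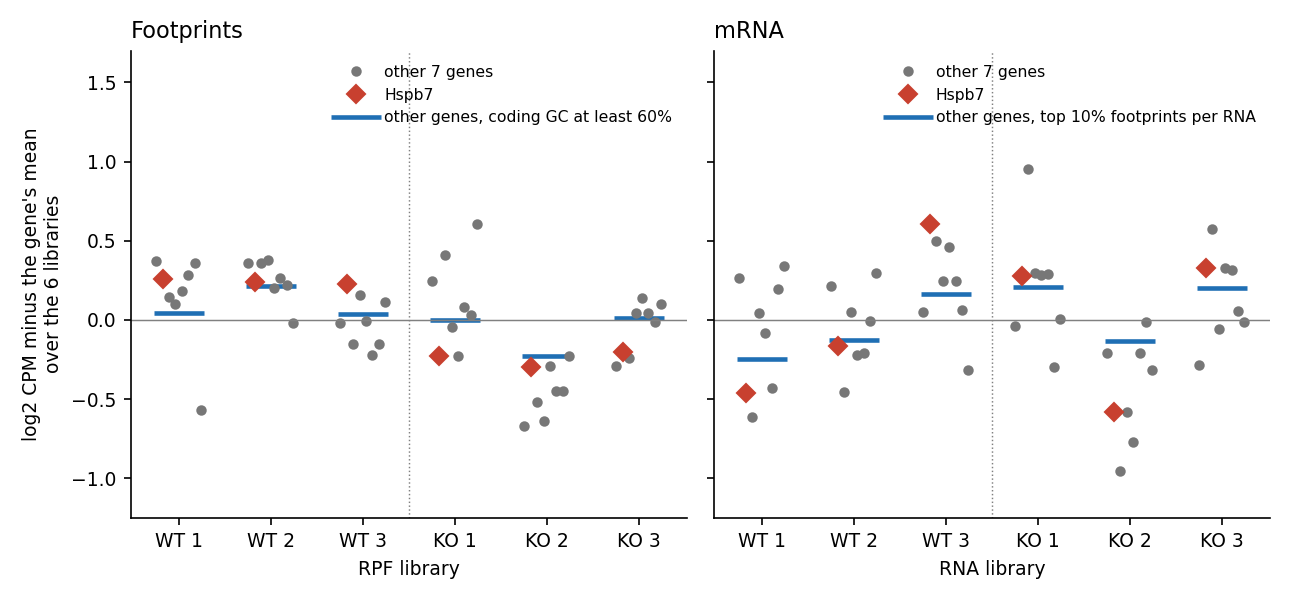
Deviation of each gene from its own mean over the 6 libraries of the assay (log2 CPM), by library, with *Hspb7* as red diamonds and the other 7 genes as grey points. Blue bars are medians of 809 other genes with a coding GC content of at least 60% (footprints, left) and of the 802 other genes with the highest footprints per RNA (right). *Hspb7* footprints lie above 0 in the 3 WT and below 0 in the 3 KO libraries, and its RNA lies above 0 in WT 3, KO 1 and KO 3.

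RNA was tested, since it was not used to choose the genes. In edgeR's quasi-likelihood test with Benjamini-Hochberg adjustment over 8379 genes, 0 of the 8 were called, against 0.0119% of all genes, which is *Rpl3l* alone. At an unadjusted p below 0.05 there were 0 of the 8 (2.54% of all genes), and DESeq2 called 0 of the 8 and 1 gene in all. The unadjusted count was 3 of the 8 (781 of 8575 genes) without WT 3, 1 of the 8 (442 of 8830) without KO 2, and 4 of the 8 (610 of 8379) with the library covariate described below, with 0 of the 8 called after adjustment in each. The median log2 fold change of the 8 was -0.11, against -0.01 over all genes, with 6 lower and 2 higher.

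*Hspb7* RNA was 14.0, 17.4 and 30.0 CPM in WT and 23.8, 12.9 and 24.6 CPM in KO, from raw counts of 86 to 286. The ranges overlapped almost wholly. Its log2 fold change was -0.01 (SE 0.31, 95% interval -0.70 to 0.69, edgeR adjusted p = 0.9997), and this interval includes the value seen in footprints. The 3 high libraries were WT 3, KO 1 and KO 3, those in which genes of high footprints per RNA were high as a group. With that group's median in each library as a covariate, added after the data were seen, the *Hspb7* RNA value was -0.42 (SE 0.15), beside -0.48 in footprints. Without WT 3 it was 0.38. The direction of *Hspb7* RNA between genotypes was therefore not settled by these libraries.

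*Cryab* RNA was 2021, 1953 and 1740 CPM in WT and 1639, 1458 and 1381 CPM in KO, the most abundant RNA of the 8. All 3 KO libraries lay below all 3 WT libraries, as in 3.19% of all genes. In 0 of the 8 did KO RNA lie wholly above WT, against 4.14% of all genes. KO kept 78.4% of the WT mean (log2 fold change -0.35, SE 0.17, edgeR adjusted p = 0.999, 95% interval -0.73 to 0.03), so the difference did not pass the test. *Cryab* RNA kept its sign in all 12 alternative fits, with values from -0.43 to -0.30 and adjusted p-values from 0.540 to 1.0. Its RNA and footprint fold changes (-0.35 and -0.43) were the closest pair among the 8 genes.

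The other RNA values were as follows. *Hspb6* RNA was 7.17, 8.05 and 16.0 CPM in WT and 22.2, 5.54 and 16.9 CPM in KO, again high in WT 3, KO 1 and KO 3 (log2 fold change 0.50, SE 0.45). It was -0.14 (SE 0.21) with the library covariate, 0.97 without WT 3 and 0.11 without KO 1. *Bag3* RNA was 22.1, 25.8 and 35.6 CPM in WT and 36.8, 25.9 and 37.4 CPM in KO (0.26, SE 0.22), and 0.01 (SE 0.13) with that covariate, 0.48 without WT 3 and 0.12 without WT 1. *Hspb8* RNA was 41.1, 37.3 and 60.1 CPM in WT and 53.0, 25.3 and 54.9 CPM in KO (-0.06, SE 0.29), and -0.45 (SE 0.15) with the covariate. These 3 genes and *Hspb7*, the 4 with a long 3′ UTR, thus had their 3 highest RNA values in the same 3 libraries. *Hspb1* RNA was 152, 153 and 175 CPM in WT and 181, 98.6 and 142 CPM in KO (-0.19, SE 0.22), and -0.42 (SE 0.14) with the covariate. *Hspb2* RNA was 40.3, 34.9 and 36.8 CPM in WT and 28.5, 34.9 and 36.6 CPM in KO (-0.16, SE 0.16). *Hspb3* RNA was 14.5, 14.0 and 9.01 CPM in WT and 11.4, 8.99 and 11.2 CPM in KO (-0.24, SE 0.23). The edgeR adjusted p of each of these 6 was 0.999. As in footprints, all 8 genes lay below their own RNA mean in KO 2, by 0.01 to 0.96 on the log2 scale.

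**Figure D3:**
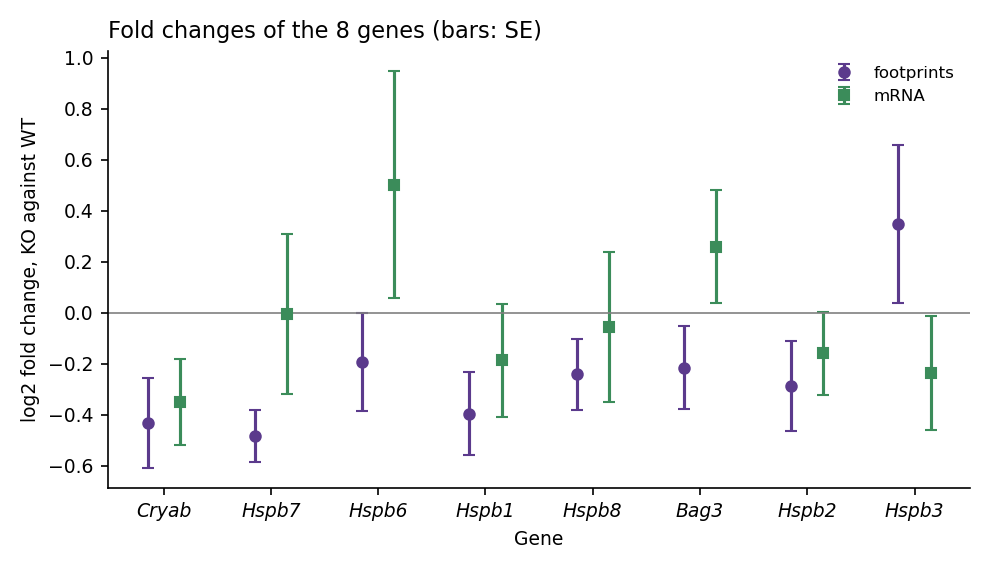
Log2 fold changes, KO against WT, of the 8 genes in footprints (circles) and RNA (squares), with bars of 1 SE from edgeR. Footprint values are below 0 in 7 of 8 genes with the smallest error at *Hspb7* (-0.48, SE 0.10), and none of the 8 RNA values passed the test.

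Footprints per RNA, the log2 ratio of footprint to RNA CPM relative to the median of 8044 genes, separated the 8 genes widely in WT. *Hspb6* stood 5.46 above the median gene and *Hspb7* 5.05 above it, that is 43.9-fold and 33.1-fold, at percentiles 99.8 and 99.6. *Bag3* stood 2.72 and *Hspb8* 1.705 above the median gene. *Cryab* (0.17), *Hspb1* (0.13) and *Hspb2* (-0.09) lay at the median, and *Hspb3* lay below it (-1.61). Their SD, from the variances of log2 footprints and log2 RNA added without pairing libraries, was between 0.19 and 0.65 in WT. The gap between *Bag3* and the genes near the median exceeded it. The same order was found in KO, from 4.83 in *Hspb6* and 4.54 in *Hspb7* to -1.09 in *Hspb3*. There the SD was wider, from 0.33 in *Hspb2* to 1.12 in *Hspb6*.

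The 4 genes above the median were those with 3′ UTRs over 500 bases, and the 4 at or below about the median were those with 3′ UTRs under 250 bases. Across 7973 other genes the ratio also went with 3′ UTR length (Spearman's rho 0.375 in WT and 0.387 in KO, across genes, which are not replicates and share these libraries). The median ratio was -1.58 for 770 genes with a 3′ UTR under 150 bases and 0.77 for 1725 genes with 1000 to 2000 bases. Its rho with coding GC was 0.037. Set beside genes of like 3′ UTR length, in classes chosen after the data were seen, 6 of the 8 still lay above the upper quartile. *Hspb2* did so only narrowly (-0.09 against a quartile of -0.12, percentile 75.7), a margin smaller than its SD. *Hspb6* was above all 776 genes of 750 to 1000 bases, and *Hspb7* was at percentile 99.4 of its class. *Cryab* and *Hspb1*, which look average among all genes, were at percentiles 89.2 and 89.0 of theirs. *Hspb8* (73.1) and *Hspb3* (48.4) were the exceptions. The region counted by the authors is not given in the sources used here, so these levels compare counted transcripts and their part in translation was not tested.

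**Figure D4:**
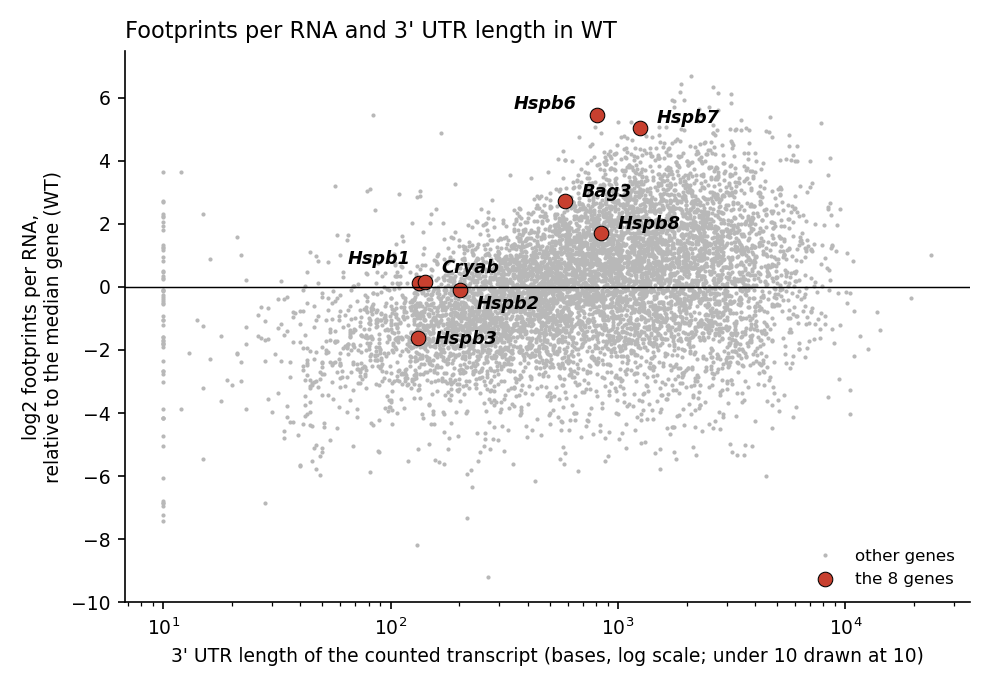
Log2 footprints per RNA in WT relative to the median gene, against the 3′ UTR length of the counted transcript (logarithmic axis), for 7973 other genes (grey) and the 8 genes (red). *Hspb6* and *Hspb7* lie near the upper edge at 5.46 and 5.05, and *Hspb3* lies at -1.61.

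Between genotypes the ratio (translational efficiency, TE) repeats the footprint contrast and is given as values. The edgeR interaction of assay and genotype gave a log2 fold change of -0.46 (SE 0.35) for *Hspb7*, -0.68 (SE 0.53) for *Hspb6*, -0.45 (SE 0.31) for *Bag3*, -0.18 (SE 0.30) for *Hspb1*, -0.16 (SE 0.35) for *Hspb8*, -0.11 (SE 0.26) for *Hspb2*, -0.06 (SE 0.29) for *Cryab* and 0.61 (SE 0.38) for *Hspb3*. The median of the 8 was -0.17, against 0.01 over all genes. In that test 0 of the 8 and 0% of all 8044 genes were called by edgeR, with 0 of the 8 and 3.73% of all at an unadjusted p below 0.05, and 0 of the 8 by DESeq2. The error of the *Hspb7* ratio comes mostly from RNA, whose SE (0.31) was about that of the ratio, while that of footprints was 0.10. Without WT 3 the *Hspb7* ratio was -0.83, and without WT 1 it was -0.24. Without WT 3 the unadjusted count was 4 of the 8 and 759 of 8258 genes.

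Of 4 other genes listed with the family, 3 were at or near 0. *Cryaa*, *Hspb9* and *Odf1*, which are lens and testis genes, had 0 counts in all 6 footprint libraries and 1 count each in RNA WT 3. A count of 0 allows a level of up to 0.401 to 0.784 CPM in a footprint library, by counting error only (3 counts). *Hspb11*, an intraflagellar transport protein, had 2 to 22 footprint counts and 25 to 62 RNA counts per library. Its RNA level was 7.95 CPM per kb of transcript over the 6 RNA libraries, close to the WT levels of *Hspb6* and *Hspb7*, with an RNA log2 fold change of -0.05 (SE 0.27).

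No listed partner or regulator of the pathway passed the test either, as was so for nearly all genes. By edgeR, 0.0119% of all genes were called in RNA and 0.00897% in footprints, so nothing is read from the absence of calls in short lists. Of 13 partners in chaperone-assisted selective autophagy, 10 were tested in RNA and 11 in footprints, and 0 were called in either by edgeR or DESeq2. None had an edgeR unadjusted p below 0.05 (0 of 10 and 0 of 11), against 2.54% and 5.96% of all genes. The median log2 fold change was 0.03 in RNA and -0.07 in footprints. *Hspa8*, the constitutive Hsp70 that Bag3 binds, had an RNA level of 2133 ± 398 CPM in WT against 1976 ± 153 in KO (SD, n = 3; log2 fold change -0.11, SE 0.19), and -0.07 (SE 0.12) in footprints. *Stub1*, the ubiquitin ligase of the complex, was at -0.16 (SE 0.15) in RNA and -0.16 (SE 0.22) in footprints. *Map1lc3a*, an autophagosome protein, was at -0.09 (SE 0.16) in RNA and -0.06 (SE 0.12) in footprints.

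Heat shock factors and their classical targets numbered 18, of which 16 were tested in each assay. By edgeR and by DESeq2 0 were called, and 0 of 16 in RNA and 1 of 16 in footprints had an unadjusted p below 0.05 (2.54% and 5.96% of all genes). Their median was -0.07 in RNA and -0.10 in footprints, with 10 and 11 of 16 lower. *Hsp90aa1*, the inducible Hsp90, had an RNA level of 1035 ± 447 CPM in WT against 664 ± 187 in KO (SD, n = 3; -0.64, SE 0.34), and -0.09 (SE 0.15) in footprints. *Hsp90ab1*, its constitutive paralog, was at -0.29 (SE 0.20) in RNA and -0.23 (SE 0.12) in footprints. *Hspa1a* and *Hspa1b* are near-identical copies, and counts of each are uncertain.

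Among 12 filament and Z-disc clients, with *Cryab* itself on the list, 0 were called by edgeR or DESeq2, and 0 of 12 in RNA and 4 of 12 in footprints had an unadjusted p below 0.05, against 2.54% and 5.96% of all genes. The median was -0.10 in RNA and -0.15 in footprints, where 9 of 12 were lower. *Cryab* was grouped with its footprint values in view, so nothing is read from the footprint counts of this list. *Actc1*, cardiac actin, was at 0.04 (SE 0.20) in RNA and 0.05 (SE 0.09) in footprints. *Actn2*, the Z-disc cross-linker, was at -0.15 (SE 0.18) in RNA and 0.05 (SE 0.11) in footprints.

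Cell type markers were set beside these values. Cardiomyocyte markers (8 of 8 tested) summed to 42909 to 57752 CPM in RNA WT and 42387 to 48175 in RNA KO, and to 96725 to 106762 and 97002 to 102471 in footprints. Of these, 0 of 8 in RNA and 2 of 8 in footprints had an edgeR unadjusted p below 0.05 (2.54% and 5.96% of all genes). Smooth muscle and pericyte markers, cells that also hold *Hspb1*, *Hspb6* and *Cryab*, summed to 78.3 to 96.5 CPM in RNA WT and 77.7 to 114 in RNA KO, and to 913 to 1167 and 935 to 1244 in footprints. The median log2 fold change of these markers was 0.21 in RNA and -0.22 in footprints, with 0 called. At an edgeR unadjusted p below 0.05 there were 2 of 6 in RNA and 1 of 7 in footprints (2.54% and 5.96% of all genes). Skeletal muscle markers stayed at or below 11.4 CPM in every library, with *Myh2* at 0 in RNA WT and *Myh4* at 0 in RNA KO. The 4 atrial markers were all higher in KO in both assays (medians 0.63 in RNA and 0.27 in footprints, 0 called by the main edgeR fit or DESeq2, 3 in RNA and 2 in footprints at an unadjusted p below 0.05, as in 2.54% and 5.96% of all genes). With the library covariate, added after the data were seen, edgeR called 7 of 8379 genes in RNA. Among them were *Myl7* (log2 fold change 0.81, edgeR adjusted p = 0.0315) and *Myl4* (0.91, edgeR adjusted p = 0.0354), both atrial markers. Macrophage markers summed to 153 to 161 CPM in RNA WT and 132 to 146 in RNA KO, and to 449 to 518 and 397 to 434 in footprints. The KO sums thus lay below the WT sums in both assays (0 called, 0 at an unadjusted p below 0.05). By gene, 3 were lower and 2 higher in RNA (median log2 fold change -0.04), and 6 of 6 were lower in footprints (median -0.24). Fibroblast sums were 278 to 340 and 316 to 369 CPM in RNA, and 3110 to 3721 and 3264 to 4075 in footprints. Of these markers, 0 of 6 in RNA and 1 of 6 in footprints had an edgeR unadjusted p below 0.05 (2.54% and 5.96% of all genes). Endothelial sums were 177 to 198 and 192 to 224 CPM in RNA, and 890 to 1094 and 1009 to 1223 in footprints. Adipocyte sums were 8.601 to 39.1 and 8.91 to 18.6 CPM in RNA, and 42.8 to 263 and 67.5 to 147 in footprints. Red blood cell sums were 1928 to 4317 and 1263 to 5270 CPM in RNA, and 353 to 1502 and 661 to 1572 in footprints. The part of these cell types in the values of the 8 genes was not tested.

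The genes whose pattern over the 12 libraries was most like that of *Hspb7* were *Coq9*, *Pkm*, *Lmcd1*, *Txndc17* and *Epn1*, among 3881 genes that averaged 50 counts or more per library in both assays. Likeness was the mean absolute difference of log2 CPM centred within each assay, which was 0.11 for *Coq9* and 0.13 for *Epn1*, against a median of 0.35 over those genes. The footprint log2 fold changes of these 5 genes were -0.17 (SE 0.12), -0.22 (SE 0.11), -0.24 (SE 0.16), -0.55 (SE 0.24) and -0.52 (SE 0.17), in the order named. Those in RNA were 0.10 (SE 0.31), -0.02 (SE 0.26), -0.14 (SE 0.32), 0.13 (SE 0.25) and 0.23 (SE 0.21). The footprint libraries entered the likeness, so lower KO footprints largely follow from the choice and nothing is read from them.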

How the data were processed

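The authors deposited raw read counts per transcript name, 1 table per library. The submitters' processing notes name cutadapt 1.18 and Bowtie2 2.4.2. The genome build, counting program, region counted and use of strand are not given in the sources used here, and counting coding sequence only would shift RNA against footprints. Of 21669 names, 21425 (98.9%) matched GENCODE M21, the source of lengths and coordinates.

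Genes were kept with filterByExpr (minimum count 10), scaled by TMM and fitted with edgeR 4.0.16 (glmQLFit, glmQLFTest; R 4.3.3) over all genes: 6 libraries for RNA or RPF, 12 for the interaction. P-values were adjusted by Benjamini-Hochberg, threshold 0.05. Alternatives were DESeq2 1.42.0, median-of-ratios scaling, scaling without mitochondrial and the 10 most abundant genes, no filter, a replicate block, each replicate left out, and a library covariate. Log2 CPM used a pseudocount of 0.5. SE is the absolute log2 fold change over the square root of F. The smallest level that 3 counts can show was 0.355 to 0.784 CPM; such limits cover counting error only. The fits were tested on simulated counts. Lists and figures used Python 3.11.15.

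The genes, lists and tests were chosen with earlier results of these data known. Genes named besides the 8 were the 3 most abundant by RNA of each pathway list, any called, and the 5 most like *Hspb7*; others in counts of 5 or fewer were named after their values were seen.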

Additional observations from a re-analysis of the deposited data

How the results depend on the processing

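Calls depended on the tool and the filter more than fold changes did. In RNA, edgeR called 1 gene, 4 without a filter and 7 with the library covariate added after the data were seen. In footprints it called 1 gene, 60 without a filter and 4 with a replicate block, and DESeq2 called 5. Of the 8 genes, DESeq2 called 1 in footprints (*Hspb7*) and the unfiltered edgeR fit 2 (*Hspb7* and *Cryab*), from which nothing is read, since footprints helped choose the genes. In TE, edgeR called 0 genes (300 at an unadjusted p below 0.05) and DESeq2 1. Leaving out a replicate gave 1 to 2 genes in footprints, 1 in RNA and 0 in TE, and 0 of the 8 genes in each.

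RNA directions were weak. *Hspb7* reversed with the replicate block (0.0027) and spanned -0.21 to 0.38 over fits that left out a replicate. *Hspb8* ranged from -0.24 to 0.22 and *Hspb1* from -0.42 to 0.0076, and *Hspb6* was -0.14 with the library covariate. Of 96 RNA values of the 8 genes under alternatives, 89 stayed the same in sign and call. For these values the cause was not tested.

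Whether replicate numbers pair WT with KO libraries was not settled. Same-numbered WT and KO deviations correlated at -0.203, 0.358 and 0.405 in RNA and 0.062, 0.029 and 0.004 in RPF. RNA WT 2 and 3 and RPF WT 1 and 2 correlated best with the KO library of their own number, while RNA WT 1 and RPF WT 3 did not. RNA and RPF deviations of the same number correlated at 0.077, 0.153 and 0.076 in WT and 0.106, 0.110 and 0.122 in KO. Each was best with its own number, a hint from the data that RNA and footprints of a number share a source. It is a weak hint, since WT and KO RNA of numbers 2 and 3 correlated more strongly. Low RNA counts of *Hspb6* (37 to 167) and *Hspb7* (86 to 286) limit the ratios.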
